A study of Mus with 12 samples.

Results

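The genes of the smooth muscle contractile apparatus were followed in the mouse uterus over 4 days of pregnancy. The list holds 38 genes, which were grouped by the role of their protein as actins (3), myosins (3), thin filament proteins (9), dense body and adhesion proteins (11), intermediate filament proteins (3), components of the contraction switch (7) and transcription factors (2). Each gene was looked up by its symbol among the rows that carry an Ensembl transcript in the 2 deposited gene tables, and all 38 were found and tested in both. They took 38 of the 59732 tested rows in the table of E0.5 and E4.5 and 37 of the 30928 tested rows in the table of E15.5 and E18.5, where Tpm2 and Tln1 share 1 row and cannot be told apart. RNA had been sequenced from the whole uterus of 12 pregnant ICR mice, an outbred strain, 1 mouse per library and 3 mice for each of the 4 days. The mice were 8 weeks old and carried no transgene and received no treatment according to the labels. The paper gives an age at mating instead, by which mice collected on later days were older. E0.5 was compared with E4.5, the day on which embryos implant, and E18.5, shortly before labor, was compared with E15.5, so a positive log2 fold change means a higher value at E0.5 or at E18.5. Levels are given in FPKM, fragments scaled to the length of the transcript and to the size of the library, and the tables were normalized separately, so no level in one table was tested against a level in the other.

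Smooth muscle shortens when myosin heads pull on actin filaments that are anchored in dense bodies and at the membrane. The pull starts when myosin light chain kinase, activated by calcium and calmodulin, phosphorylates the regulatory light chain, and it ends when myosin phosphatase removes the phosphate, a step that RhoA and its kinases slow down. In the uterus these proteins fill the myometrium, the muscle layer that stays quiet through most of pregnancy and contracts in labor, and blood vessel walls hold many of the same proteins. In RNA from a whole uterus, fewer muscle cells and less RNA per muscle cell cannot be told apart.

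Acta2, Tagln and Flna were among the most abundant protein-coding messages, with ranks of 6 to 14, 13 to 49 and 17 to 83 in all libraries but replicate 3 of E4.5, where they ranked 50, 802 and 70. The FPKM of all members together summed to between 1542 and 7381 in 11 of the 12 libraries, and to 576 in the remaining library, replicate 3 of E4.5. Libraries of the table of E0.5 and E4.5 held 58020989 to 70906881 counts, and the depth of the other libraries is unknown because their table holds FPKM alone. The gene positions given here match the build GRCm38, in which each of the 38 member rows overlaps the RefSeq gene of its name, on 18 chromosomes. Of the members, 13 are annotated in the table to vascular smooth muscle contraction in KEGG and 20 to an actin binding term of Gene Ontology.

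The library of E4.5 replicate 3 stood apart, and the results of E0.5 against E4.5 are therefore given with and without it. A member had a median of 50.9% of the mean of the other 2 E4.5 libraries there, whereas a protein-coding gene of at least 1 FPKM had a median of 109%. At or below 50% were 19 of the 38 members and 8.59% of the protein-coding genes, and 28 members had their lowest value of the 6 libraries there. Des, the desmin gene, was at 9.75% of the other libraries, Tagln at 13.7%, Pdlim3 at 13.8%, Synpo2 at 13.9%, Cnn1 at 16.5%, Actg2 at 17.0%, Myh11 at 22.9% and Acta2 at 27.4%. The low values covered filament, dense body and thin filament genes, among them all 3 myosins, with Myl6 at 46.0%, and Flna at 39.5%. The members with the highest shares were Tpm4 at 116%, Rock1 at 113%, Rhoa and Rock2 at 111% each, Cryab at 106%, Tln1 at 95.3% and Myocd at 94.0%. Among protein-coding genes, Acta2 ranked 50 in this library and between 6 and 14 in the other 5, and Myh11 ranked 648 against 39 to 81.

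**Figure D1:**
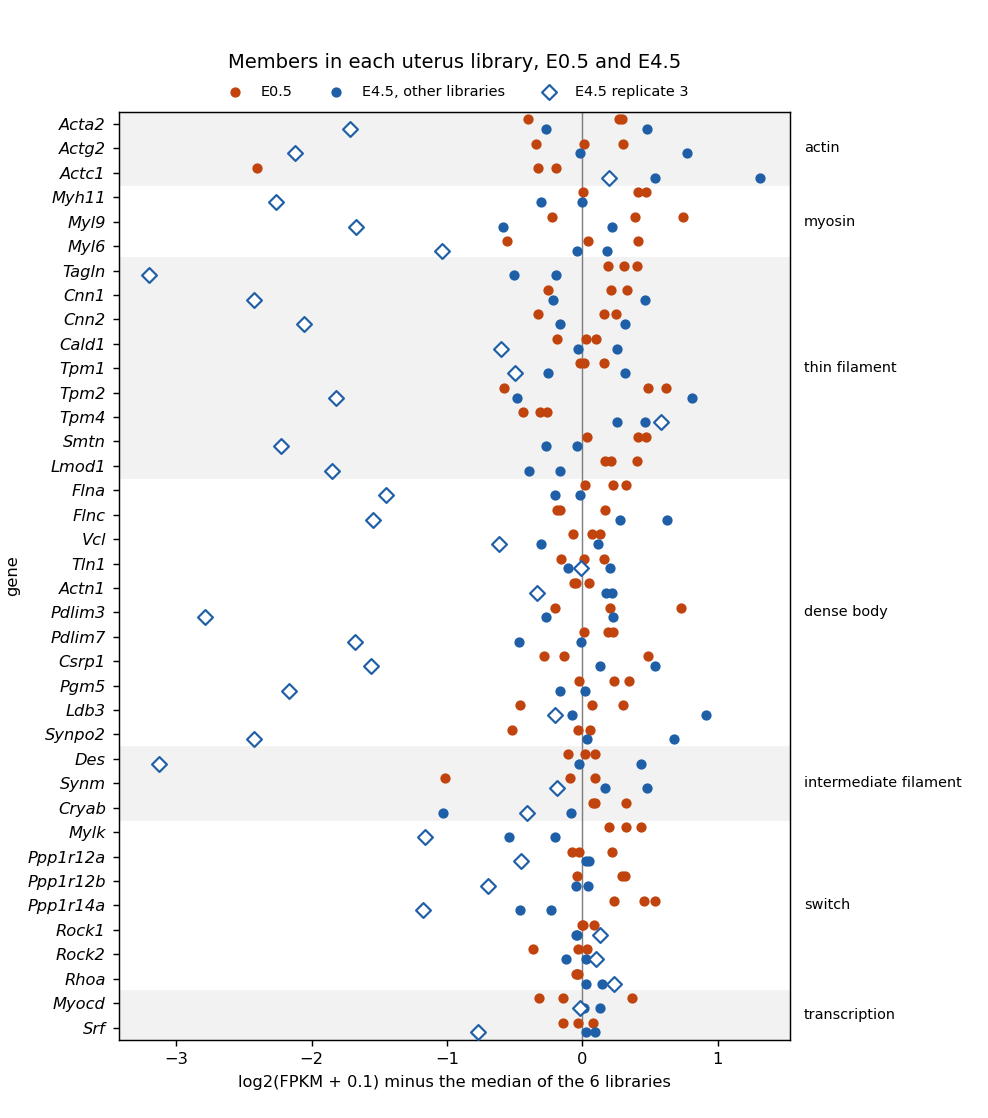
Level of each of the 38 members in the 6 libraries of E0.5 (red) and E4.5 (blue), as log2(FPKM + 0.1) minus the median of the 6 libraries, with genes on the vertical axis grouped by role. The open diamonds of E4.5 replicate 3 lie far to the left for most filament and dense body genes, and close to the other points for Tpm4, Rock1, Rock2, Rhoa and Myocd.

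Markers of other cell types also differed in that library. All 7 ovary markers were above 0 there, and their FPKM summed to 841 against 4.26 to 6.44 in the other 5 libraries, with Cyp11a1, the enzyme that starts steroid synthesis, at 378 FPKM. The 4 uterine markers (Hoxa10, Hoxa11, Esr1 and Pgr) summed to 9.61 FPKM there against 25.2 to 88.3 FPKM, and the 5 stroma markers to 122 FPKM against 221 to 398 FPKM. The 7 skeletal muscle markers, of which Acta1 is the most abundant, summed to 2.16 FPKM against 16.5 to 32.1 FPKM. Tnnt3 had 1.56 FPKM there against 5.50 to 10.7 FPKM, while Myh4 and Myh8, which define skeletal fibres, stayed under 0.1 FPKM in all 6 libraries. The 7 markers of vascular mural cells summed to 58.6 FPKM there, to 101 and 150.9 FPKM in the other E4.5 libraries and to between 75.4 and 89.5 FPKM at E0.5. Of these markers, Rgs5, at 13.4 FPKM against 28.2 FPKM or more in the other 5 libraries, Abcc9, Higd1b and Cspg4 were lowest there. Pdgfrb was highest there, at 26.3 FPKM, and Notch3 and Kcnj8 lay between the other E4.5 libraries. Between the days, in all 6 libraries, the sums of the 4 epithelium markers were higher at E0.5 (164 to 205 FPKM) than at E4.5 (58.1 to 136 FPKM), as were those of the stroma markers (252 to 398 FPKM against 122 to 235 FPKM). Of the stroma markers, Dcn and Lum were apart by day in that direction, Pdgfra and Col1a1 overlapped, and Hand2 had 1.67 to 2.75 FPKM at E0.5, 1.13 FPKM in E4.5 replicate 3 and at least 20.6 FPKM in the other E4.5 libraries. The sums of the 3 endothelium markers were lower at E0.5 (13.2 to 15.4 FPKM) than at E4.5 (21.4 to 40.3 FPKM), as were those of the decidua markers Prl8a2 and Bmp2 (0.484 to 0.580 FPKM against 3.97 to 8.98 FPKM). The endothelium marker Pecam1 and the epithelium marker Krt18 overlapped between the days. Prl8a2 was above 0 only in E4.5 replicate 1, at 0.734 FPKM, so the decidua difference was that of Bmp2. The part of these differences in the member values, by day or in the low library, was not tested.

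**Figure D2:**
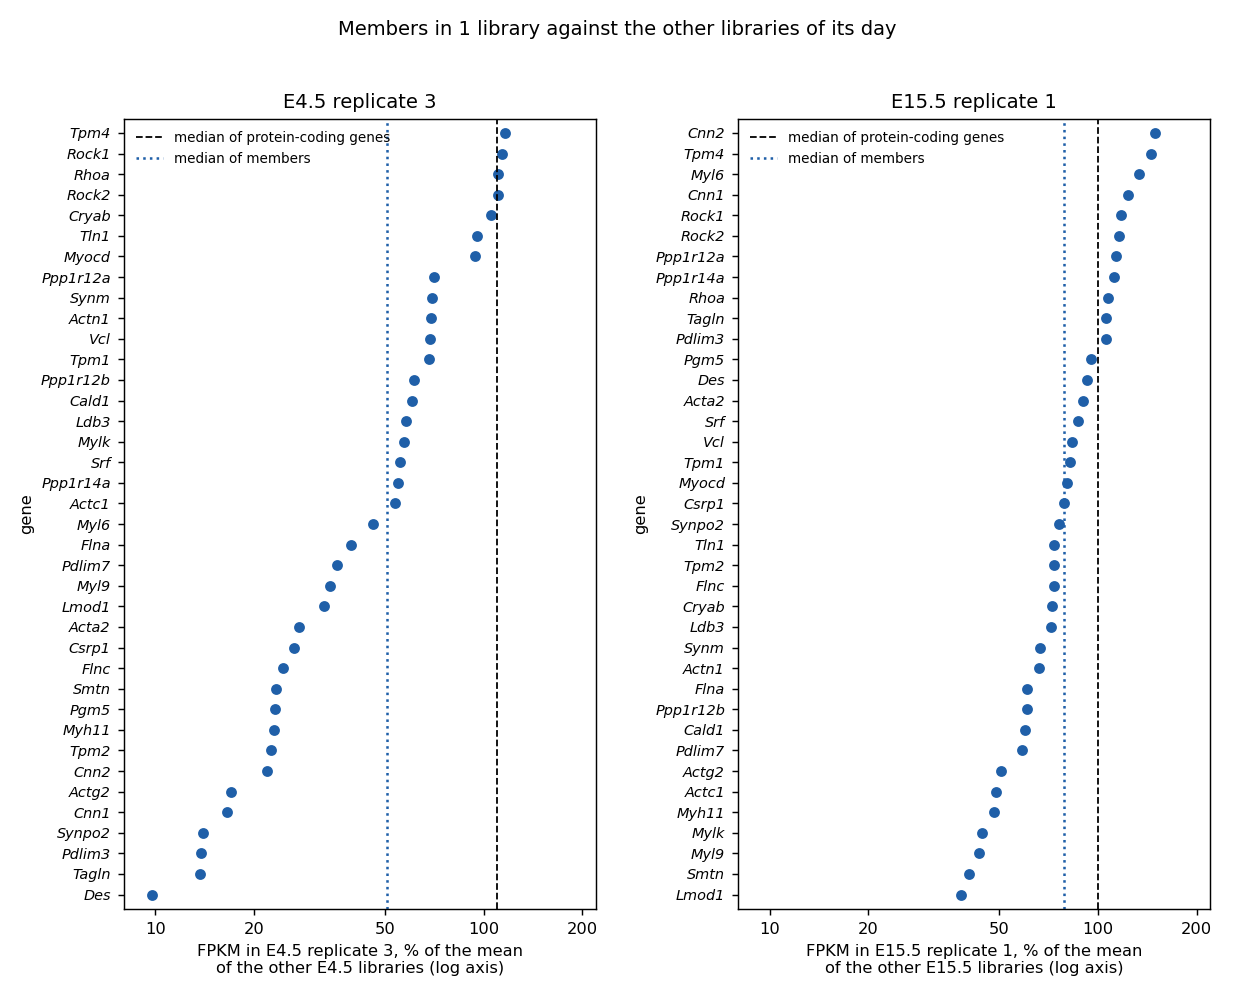
Level of each member in E4.5 replicate 3 (left) and E15.5 replicate 1 (right) as a percentage of the mean of the other libraries of the same day, on a log axis, with genes sorted by that value. The dotted line is the median of the members, 50.9% on the left and 78.7% on the right, and the dashed line is the median of protein-coding genes, 109% and 100%.

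Between E0.5 and E4.5, few members passed the test. Ppp1r14a, which encodes CPI-17, an inhibitor of myosin phosphatase, was the 1 member of 38 past the criterion, which takes the thresholds of the study, a fold of 1 or more in either direction on the log2 scale together with p below 0.05, and applies them here to p before adjustment. That is 2.63% of the members, against 12.2% of all tested rows and 14.6% of the protein-coding rows. With edgeR's quasi-likelihood test, 0 of 38 members also had an adjusted p under 0.05, against 1.2% of all rows, and 3 members had an unadjusted p under 0.05 at any fold (Ppp1r14a, Mylk and Tpm4), 7.89% against 17.0% of all rows. DESeq2 called Ppp1r14a at an adjusted p of 0.0238, and at smaller folds Mylk at 0.0484 and Tpm4 at 0.00306, a share of 7.89% against 9.74% of all rows at any fold, and of 2.63% against 8.06% with the fold minimum. The median log2 fold change was 0.25 for the members, with 27 higher and 11 lower at E0.5, -0.01 for all rows and -0.16 for the protein-coding rows. As higher at E0.5 were 71.1% of the members, 49.6% of all rows and 38.8% of the protein-coding rows. Without E4.5 replicate 3 the median was -0.07, with 15 higher and 23 lower, and 0 members met the criterion against 14.4% of all rows. Leaving out E4.5 replicate 1 instead moved the median of the members the other way, to 0.61, with 33 higher and 5 lower, while that of the protein-coding rows was -0.16. The count of members past the criterion was also 0 without E0.5 replicate 2 (10.1% of all rows) or replicate 3 (10.3%), and it was 5 without E4.5 replicate 1 (Ppp1r14a, Mylk, Lmod1, Myl9 and Pdlim7, all higher at E0.5), where 11.4% of all rows met it.

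The precision of these values turned on the same library. The median half-width of a member's 95% interval was 0.97 on the log2 scale with all 6 libraries and 0.47 without E4.5 replicate 3. Intervals that stayed within 1 of 0 on the log2 scale, and so left no room for a doubling, were found for 11 of 38 members with all libraries and for 25 of 38 without it. For the remaining members, among them Ppp1r14a, the interval reached a doubling or a halving. The groups did not overlap for 12 members, 31.6% against 25.2% of all rows and 34.9% of the protein-coding rows, and for 16 members without that library, 42.1% against 40.3% and 52.7%.

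The actins of smooth muscle overlapped between the days. Acta2, the α-actin of vascular and uterine muscle (chromosome 19, from 34241090 to 34255590, minus strand), had 278, 443 and 449 FPKM at E0.5 against 512, 304 and 112 FPKM at E4.5. Its highest and lowest values were both at E4.5, and its log2 fold change was 0.32 (SE 0.545, adjusted p = 0.803, edgeR) with all libraries and -0.09 without E4.5 replicate 3. Actg2, the γ-actin of visceral muscle (chromosome 6, from 83512905 to 83536265, minus strand), had 98.7, 127 and 154.6 FPKM at E0.5 against 214, 124 and 28.7 FPKM at E4.5. The E0.5 values lay inside the range of the E4.5 values, with a log2 fold change of 0.03 that was -0.44 without E4.5 replicate 3. Actc1, the cardiac actin, stayed at or below 1.22 FPKM and had a count of 0 in E0.5 replicate 1, 44 and 46 counts in the other E0.5 libraries and 168, 89 and 67 counts at E4.5. Its fitted log2 fold change of -1.79 had an SE of 1.25 and did not pass the test, and it was -2.05 without E4.5 replicate 3.

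The ratio of Actg2 to Acta2 within a library does not depend on how the library was scaled. It was 0.328 ± 0.0371 (SD, n = 3) at E0.5 and 0.361 ± 0.0899 (SD, n = 3) at E4.5, a difference of -0.11 on the log2 scale that lay within the spread between mice (exact two-sided permutation test, p = 0.6). With 3 mice a day this test cannot give a p below 0.1. The difference was -0.34 without E4.5 replicate 3, and all E0.5 libraries (0.286 to 0.355) were below both remaining E4.5 libraries (0.407 and 0.418), with p = 0.2 in the exact permutation test, the smallest that 3 against 2 libraries allow.

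Of the myosins, Myh11, the heavy chain specific to smooth muscle (chromosome 16, from 14194535 to 14291372, minus strand), had 98.1, 136 and 130 FPKM at E0.5 against 97.4, 79.3 and 20.3 FPKM at E4.5. The days did not overlap, although the lowest E0.5 and the highest E4.5 value were close together. The log2 fold change was 0.88 (SE 0.552, adjusted p = 0.455, edgeR), and 0.44 (SE 0.214) without E4.5 replicate 3. Myl9, the regulatory light chain that the kinase phosphorylates, had a log2 fold change of 0.83, and Myl6, the essential light chain found in most cells, had 0.23. Neither passed the test, and without E4.5 replicate 3 they were at 0.46 and -0.07.

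Among the thin filament genes, Tagln, the gene of the actin-binding protein transgelin, had 182.9, 198 and 212 FPKM at E0.5 against 140, 113 and 17.3 FPKM at E4.5. All 3 E0.5 libraries were above all 3 E4.5 libraries. Its log2 fold change was 1.12 (SE 0.677, adjusted p = 0.437, edgeR), a fold above the minimum with an unadjusted p of 0.145, and without E4.5 replicate 3 it was 0.62 (SE 0.178, unadjusted p = 0.0105, adjusted p = 0.0988). Smtn and Lmod1, which encode smoothelin and the actin nucleator leiomodin, gave 0.89 and 0.91 with all libraries and 0.45 and 0.53 without that library. The calponins Cnn1 and Cnn2, caldesmon (Cald1) and the tropomyosins Tpm1 and Tpm2 lay between 0.07 and 0.41 with all libraries and between -0.15 and -0.03 without it.

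Tpm4, a tropomyosin isoform of nonmuscle and muscle cells, ran the other way. It is described here because its values drew attention, not by the rule that chose the other genes. Tpm4 (chromosome 8, from 72130174 to 72153142, plus strand) had 17.5, 19.9 and 19.2 FPKM at E0.5 against 32.8, 28.5 and 35.6 FPKM at E4.5. The days did not overlap, and E4.5 replicate 3 was the highest of the 6 libraries. The log2 fold change was -0.76 (SE 0.163, unadjusted p = 0.00245, adjusted p = 0.0812, edgeR), and without E4.5 replicate 3 it was -0.72 (adjusted p = 0.0469), the only member with an adjusted p under 0.05 in that comparison, against 6.28% of all rows at any fold. The ratio of Tpm4 to Tpm1, its counterpart in the contractile filament, was 1.03 to 1.15 at E0.5 and was above that range at E4.5, with 1.56, 2.02 and 2.98.

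None of the dense body and adhesion genes passed the test. Flna, the gene of the actin crosslinker filamin A and the most abundant of this group, had 240, 297 and 278 FPKM at E0.5 against 234, 206 and 86.8 FPKM at E4.5. The days did not overlap, and the log2 fold change was 0.62 (SE 0.395) with all libraries and 0.29 without E4.5 replicate 3. Csrp1, which encodes a LIM protein of the actin cytoskeleton, had 121, 206 and 134 FPKM at E0.5 against 214, 161 and 49.7 FPKM at E4.5, and the days overlapped. Of the group, 6 genes were higher and 5 lower at E0.5, with a median log2 fold change of 0.11, and 0 had an unadjusted p under 0.05 (edgeR). Without that library 5 were higher and 6 lower, with a median of -0.07. Without E4.5 replicate 3, Flnc, the muscle filamin, had a log2 fold change of -0.54 (unadjusted p = 0.0298, adjusted p = 0.178, edgeR).

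Of the intermediate filament genes, Des had 107, 122 and 116 FPKM at E0.5 against 154, 113 and 13.0 FPKM at E4.5. The E4.5 libraries spanned the whole range, the log2 fold change was 0.28 (SE 0.757), the largest SE of all members but Actc1, and without E4.5 replicate 3 it was -0.24 (SE 0.195). Synm, which encodes synemin, a partner of desmin, gave -0.45, and -0.62 without that library. Cryab, the small heat shock protein αB-crystallin that protects desmin filaments, was low at this stage, with 1.76, 1.74 and 2.07 FPKM at E0.5 against 1.54, 0.752 and 1.21 FPKM at E4.5. No library of one day reached into the range of the other, and the log2 fold change of 0.65, with or without E4.5 replicate 3, did not pass the test (adjusted p = 0.386, edgeR).

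Both members of the contraction switch with an unadjusted p under 0.05 act on the phosphorylation of the myosin light chain. Ppp1r14a (chromosome 7, from 29289308 to 29293801, plus strand) had 5.29, 6.54 and 6.20 FPKM at E0.5 against 3.24, 3.80 and 1.93 FPKM at E4.5, or 6.01 ± 0.645 against 2.99 ± 0.957 FPKM (SD, n = 3). All E0.5 libraries were above all E4.5 libraries. The log2 fold change was 1.01 (SE 0.286, unadjusted p = 0.010, adjusted p = 0.147, edgeR), and without E4.5 replicate 3 it was 0.76 (SE 0.180, adjusted p = 0.0576), which is below the fold minimum. Mylk, the myosin light chain kinase gene, had 19.8, 23.2 and 21.6 FPKM at E0.5 against 15.0, 11.8 and 7.63 FPKM at E4.5. Here too the days did not overlap, with a log2 fold change of 0.91 (SE 0.288, unadjusted p = 0.0169, adjusted p = 0.185, edgeR) that was 0.67 without E4.5 replicate 3. The phosphatase subunits Ppp1r12a and Ppp1r12b gave 0.16 and 0.41, and Rock1, Rock2 and Rhoa gave 0.02, -0.11 and -0.17. These 5 genes lay between -0.14 and 0.19 without E4.5 replicate 3. For Rock1, Rock2, Rhoa and Ppp1r12a the interval stayed within 1 of 0 on the log2 scale.

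The transcription factors that drive smooth muscle genes did not pass the test. Myocd, the myocardin gene, had 2.68, 4.37 and 3.04 FPKM at E0.5 against 3.69, 3.41 and 3.34 FPKM at E4.5. Srf, the gene of its partner serum response factor, had 6.58, 6.07 and 7.12 FPKM at E0.5 against 7.18, 6.87 and 3.90 FPKM at E4.5. The days overlapped for both. The log2 fold changes were -0.04 (SE 0.230) and 0.14 (SE 0.272), and the sign for Myocd changed with the scaling, to 0.06 with factors from protein-coding rows. They were -0.09 and -0.11 without E4.5 replicate 3.

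**Figure D3:**
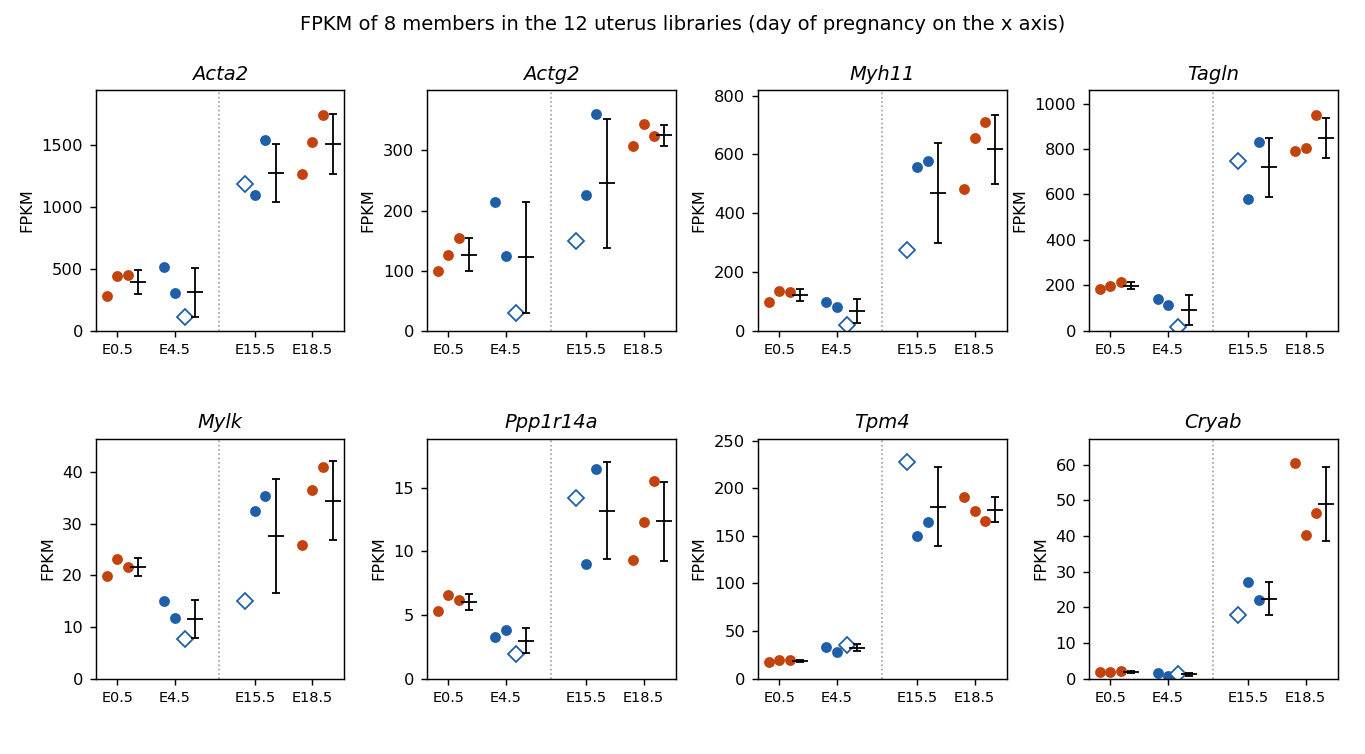
FPKM of 8 members in each of the 12 libraries by day of pregnancy, with the mean and SD of 3 mice as a bar beside the points and a dotted line between the tables, which were normalized separately. Open diamonds are E4.5 replicate 3 and E15.5 replicate 1. Ppp1r14a and Mylk are higher and Tpm4 lower in all E0.5 than in all E4.5 libraries, and Cryab is higher in all E18.5 than in all E15.5 libraries.

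Between E15.5 and E18.5 the 1 member past the criterion was Cryab, 2.7% of the 37 rows against 6.05% of all tested rows. With limma, 0 members also had an adjusted p under 0.05, against 0.0259% of all rows, and 4 had an unadjusted p under 0.05 at any fold (Cryab, Cald1, Pdlim7 and Des), all higher at E18.5, which is 10.8% against 12.2% of all rows. The median log2 fold change was 0.24 for the members, with 30 rows higher and 7 lower at E18.5, and 0.02 for all rows. The days did not overlap for 9 rows, 24.3% against 19.9% of all rows, and all 9 were higher at E18.5 (Cald1, Smtn, Lmod1, Actn1, Pdlim7, Csrp1, Des, Cryab and Srf), a direction that 10.9% of all rows showed. This count was 18 without E18.5 replicate 1 (48.6% against 27.6% of all rows) and 15 without E15.5 replicate 3 (40.5% against 33.5%). It was 9 to 13 when any other library was left out. The shares were then 35.1% against 29.0% of all rows without E15.5 replicate 1 and 29.7% against 28.6% without E15.5 replicate 2. They were 24.3% against 28.8% without E18.5 replicate 2 and 27.0% against 32.6% without E18.5 replicate 3. The median log2 fold change was 0.36 without E18.5 replicate 1 and 0.14 without E18.5 replicate 3. The intervals of 21 rows stayed within 1 of 0 on the log2 scale. The count past the criterion was 0 (5.02% of all rows) when E15.5 replicate 1 was left out, 0 when E18.5 replicate 1 was, 2 without E15.5 replicate 2 (Cryab and Lmod1) and 3 without E15.5 replicate 3 (Cryab, Lmod1 and Smtn). In the last 3 of these settings 5.02%, 5.89% and 7.82% of all rows met it.

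The library of E15.5 replicate 1 was the low one at this stage. A member had a median of 78.7% of the mean of the other 2 E15.5 libraries there, against 100% for protein-coding genes. Lmod1 was at 38.2%, Smtn at 40.6%, Myl9 at 43.6%, Mylk at 44.3%, Myh11 at 48.3% and Actg2 at 50.6%, whereas Cnn2 was at 149%, Tpm4 at 145%, Myl6 at 134% and Cnn1 at 123%. The genes of the heavy chain, the regulatory light chain and its kinase were thus low in a library in which the essential light chain, the calponins and Tpm4 were high. The decidua markers Prl8a2 and Bmp2 summed to 1343 FPKM in this library, nearly all of it Prl8a2, and to between 41.3 and 86.8 FPKM in the other 5. The 4 yolk sac markers summed to 0.653 FPKM there and to between 117 and 953 FPKM in the other 5, and the trophoblast markers to 33.9 FPKM against 4.55 and 3.79 FPKM in the other E15.5 libraries. Without this library the median log2 fold change of the members was 0.13, and 32 of 37 intervals stayed within 1 of 0.

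Other cell types differed between the late days as well. The 4 epithelium markers summed to 491 to 684 FPKM at E18.5 and to 178 to 357 FPKM at E15.5, and the 3 endothelium markers to 57.7 to 87.2 FPKM at E18.5 and to 128 to 159 FPKM at E15.5. Most of the endothelium sum was Cdh5, while Kdr overlapped between the days. The 4 trophoblast markers found summed to 43.4 to 74.5 FPKM at E18.5 and to 3.79 to 33.9 FPKM at E15.5, and the decidua markers to 41.3 to 59.6 FPKM at E18.5 and to 72.8 FPKM or more at E15.5. Of the trophoblast markers Tpbpa was apart by day, and Prl3b1, Prl2c2 and Psg21 overlapped. Of the decidua markers Prl8a2 was apart by day and Bmp2 overlapped. The sums of the vascular mural markers overlapped, at 79.2 to 82.9 FPKM and 75.3 to 80.2 FPKM. Of these markers, Kcnj8 (8.86 to 13.1 FPKM against 4.76 to 7.91 FPKM) and Abcc9 (6.54 to 6.69 FPKM against 4.49 to 5.68 FPKM) were higher in all E18.5 libraries. The other mural markers overlapped between the days. The 6 cardiac markers summed to between 1.18 and 3.93 FPKM, and Myh6, which defines cardiac muscle, was under 0.1 FPKM in every library. Of the other cardiac markers, Myl7 was apart by day, with at most 0.472 FPKM at E18.5 against 0.944 to 1.51 FPKM at E15.5. The rest overlapped, and Nppa reached 1.66 FPKM. The part of these differences in the member values was not tested.

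**Figure D4:**
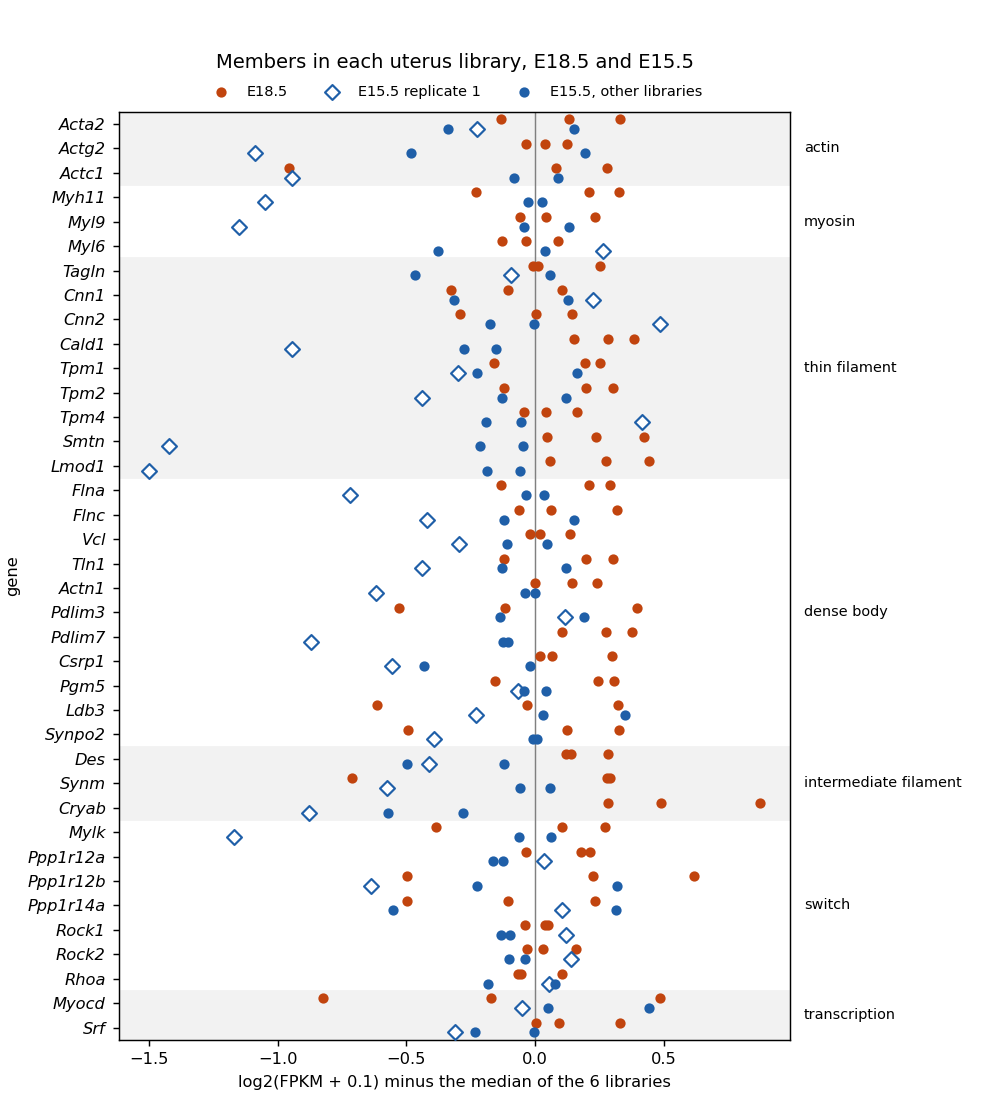
Level of each member in the 6 libraries of E18.5 (red) and E15.5 (blue), as log2(FPKM + 0.1) minus the median of the 6 libraries, with genes grouped by role. Tpm2 and Tln1 show the same points because they share a row. The open diamonds of E15.5 replicate 1 lie to the left for Actg2, Myh11, Myl9, Smtn, Lmod1 and Mylk and to the right for Cnn2, Tpm4 and Myl6.

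Cryab had 60.5, 40.1 and 46.3 FPKM at E18.5 against 17.9, 27.1 and 22.1 FPKM at E15.5, or 49.0 ± 10.4 against 22.4 ± 4.61 FPKM (SD, n = 3). There was no overlap between the days. The log2 fold change was 1.12 (SE 0.213, unadjusted p = 0.00121, adjusted p = 0.141, limma), and it was 0.97 without E15.5 replicate 1 and 0.96 without E18.5 replicate 1, both under the fold minimum. Des, whose filaments Cryab protects, had 462, 413 and 418 FPKM at E18.5 against 286, 269 and 349 FPKM at E15.5, again with no overlap. Its log2 fold change was 0.52 (SE 0.209, unadjusted p = 0.0411, adjusted p = 0.387, limma) and 0.49 without E15.5 replicate 1. Synm, the third gene of the group, gave 0.14 with overlapping days.

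The actins and myosins overlapped between the late days. Acta2 had 1265, 1522 and 1745 FPKM at E18.5 against 1187, 1097 and 1541 FPKM at E15.5, and its log2 fold change was 0.25 (SE 0.370, adjusted p = 0.814, limma). Actg2 had 308, 344 and 324 FPKM at E18.5 against 148, 226 and 361 FPKM at E15.5, where the highest value of all 6 libraries also lay. Its log2 fold change was 0.50 (SE 0.331) and 0.19 without E15.5 replicate 1. Myh11 had 484, 656 and 712 FPKM at E18.5 against 274, 557 and 578 FPKM at E15.5, and its log2 fold change went from 0.45 (SE 0.367) to 0.10 without that library. Myl9, Myl6 and Actc1 gave 0.43, 0.00 and 0.11, and the ratio of Actg2 to Acta2 was 0.218 ± 0.0296 (SD, n = 3) at E18.5 and 0.188 ± 0.0567 (SD, n = 3) at E15.5 (exact two-sided permutation test, p = 0.6).

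Of the thin filament genes, Cald1 had 23.0, 21.4 and 19.5 FPKM at E18.5 against 9.08, 14.5 and 15.8 FPKM at E15.5, with no overlap between the days. The log2 fold change of this actin-binding regulator was 0.73 (SE 0.219, unadjusted p = 0.0128, adjusted p = 0.264, limma), and 0.49 (SE 0.109) without E15.5 replicate 1. Tagln had 793, 804 and 951 FPKM at E18.5 against 748, 579 and 831 FPKM at E15.5, which overlapped, with a log2 fold change of 0.25 (SE 0.290). Smtn and Lmod1 gave 0.80 and 0.84 with unadjusted p-values of 0.0606 and 0.0613 in limma, and 0.37 and 0.38 with 0.0412 and 0.0350 without E15.5 replicate 1, as the SE also fell. Cnn1 and Cnn2 were at -0.12 and -0.15. Tpm4 had 191, 176 and 166 FPKM at E18.5 against 228, 150 and 164 FPKM at E15.5, and its log2 fold change rounded to 0.00 (SE 0.207).

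Among the dense body genes Csrp1 was the most abundant, with 603, 624 and 732 FPKM at E18.5 against 405, 442 and 588 FPKM at E15.5. The ranges of the days were separate, and the log2 fold change was 0.46 (SE 0.263, adjusted p = 0.522, limma). Flna had 392, 497 and 525 FPKM at E18.5 against 261, 440 and 419 FPKM at E15.5, which overlapped (log2 fold change 0.36, SE 0.287). Pdlim7, which encodes a PDZ and LIM protein of actin filaments, had 14.1, 11.7 and 13.1 FPKM at E18.5 against 5.88, 9.93 and 10.1 FPKM at E15.5, with no overlap. It gave 0.62 (SE 0.226, unadjusted p = 0.0293, adjusted p = 0.346, limma) and 0.37 without E15.5 replicate 1. The other rows of the group lay between -0.16 for Ldb3 and 0.35 for Actn1.

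None of the 7 switch genes had an unadjusted p under 0.05 in limma at this stage. Mylk had 25.9, 36.4 and 40.9 FPKM at E18.5 against 15.0, 32.4 and 35.4 FPKM at E15.5, and its log2 fold change of 0.39 (SE 0.349) became 0.00 without E15.5 replicate 1. Ppp1r14a had 9.31, 12.3 and 15.54 FPKM at E18.5 against 14.2, 8.97 and 16.5 FPKM at E15.5, with a log2 fold change of -0.08 (SE 0.275). The days overlapped for both genes. Rock1, Rock2 and Rhoa gave 0.05, 0.05 and 0.01 with SE of at most 0.127, and their intervals stayed within 1 of 0. Srf had 10.2, 9.62 and 12.1 FPKM at E18.5 against 7.71, 8.16 and 9.58 FPKM at E15.5, with no overlap and a log2 fold change of 0.32 (SE 0.145, unadjusted p = 0.0612, limma). Myocd had 2.46, 3.92 and 6.24 FPKM at E18.5 against 4.27, 6.05 and 4.59 FPKM at E15.5, with overlap and a log2 fold change of -0.32 (SE 0.331).

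**Figure D5:**
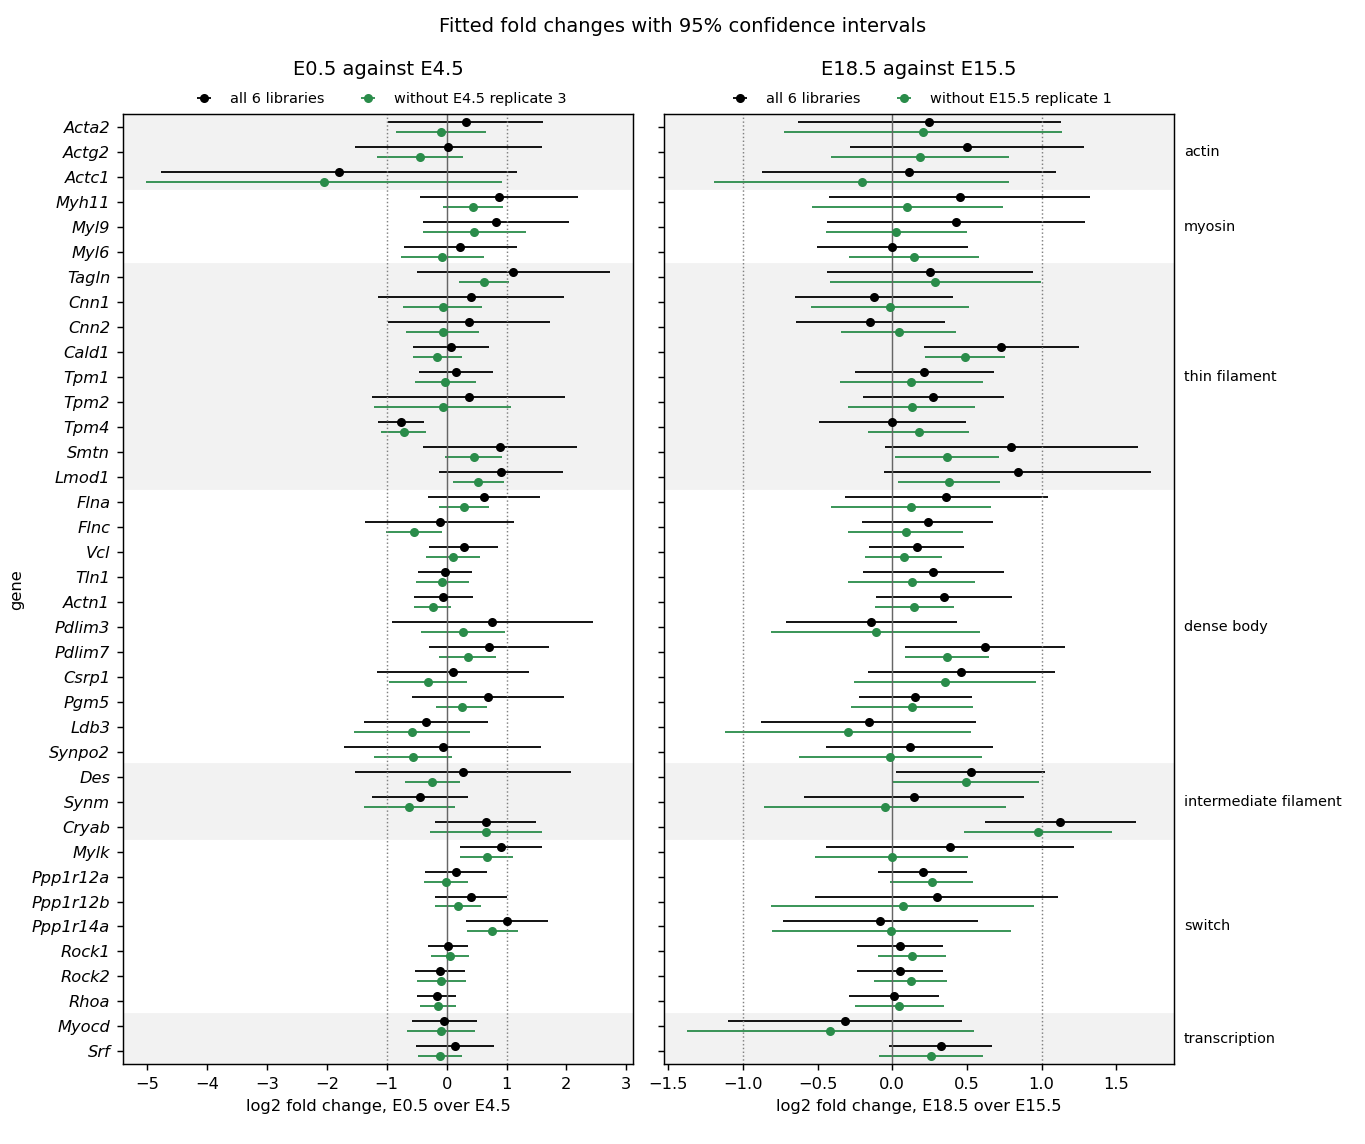
Fitted log2 fold change of each member with its 95% confidence interval, E0.5 over E4.5 by edgeR on the left and E18.5 over E15.5 by limma on the right, with all 6 libraries (black) and without E4.5 replicate 3 or E15.5 replicate 1 (green). Dotted lines mark the fold minimum of 1 on the log2 scale, and the median half-width of the intervals is 0.97 (black) and 0.47 (green) on the left and 0.54 and 0.48 on the right.

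Whether the effect of the day differed between the stages was tested by subtracting one log2 fold change from the other, over the 12 libraries. With limma 0 of 38 members differed at an adjusted p under 0.05, against 2.64% of the 22056 paired rows, and 2 had an unadjusted p under 0.05, against 18.2%. These were Tpm4, with a difference of -0.77 (SE 0.256, adjusted p = 0.139), and Ppp1r14a, with 1.11 (SE 0.409, adjusted p = 0.178). Without E4.5 replicate 3, 7 members had an unadjusted p under 0.05, 18.4% against 21.4% of the paired rows, namely Ppp1r14a, with a higher fold at the earlier stage, and Actc1, Cald1, Tpm4, Flnc, Actn1 and Des, with a lower one. The differences of Tpm4 and Ppp1r14a were then -0.69 and 0.83, and Actc1, at -2.01 (adjusted p = 0.220, limma), took the place of Ppp1r14a as the 1 member past the fold minimum and p together (2.63%, against 11.9% of the paired rows with all libraries and 14.2% without that one). The Actc1 difference was -1.77 with all libraries, -1.06 without E0.5 replicate 1, its library with a count of 0, and -0.62 with a pseudocount of 1. Without E15.5 replicate 1, where Tpm4 was high, the Tpm4 difference was -0.95 (adjusted p = 0.0416), the 1 member past the adjusted p there, against 2.71% of the paired rows, and over all 16 alternatives its adjusted p ranged from 0.0416 to 0.270. Cryab met the criterion at 1 stage only, and its difference of the effects was not past the threshold under any of the 16 alternatives, with adjusted p-values from 0.215 to 0.756.

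The members were also set beside 52 other genes of contraction, which encode further myosins, calcium handling proteins, membrane linkers and signalling proteins and are measured in 51 rows at the earlier stage, where Myl12a and Myl12b share a row. At E0.5, 3 rows were past the criterion, all higher than at E4.5 (5.88% against 12.2% of all rows). At any fold 10 rows had an unadjusted p under 0.05 in edgeR, all higher, which is 19.6% against 17.0% of all rows in either direction and 8.3% as higher. Mustn1, which encodes a small protein of muscle, had 3.13, 2.47 and 1.99 FPKM at E0.5 against 0.796, 1.01 and 0.531 FPKM at E4.5, and the log2 fold change was 1.70 (adjusted p = 0.0711, edgeR). Dmd, the dystrophin gene that links actin to the membrane, had 9.03, 10.9 and 9.45 FPKM at E0.5 against 4.43, 4.66 and 3.27 FPKM at E4.5, with 1.26 (adjusted p = 0.0504, edgeR). The days did not overlap for either gene. Palld, whose protein palladin binds actin in dense bodies, had 15.3, 14.7 and 17.9 FPKM at E0.5 against 8.88, 9.52 and 4.32 FPKM at E4.5, again without overlap, and gave 1.08 (adjusted p = 0.168, edgeR). Without E4.5 replicate 3 there were 4 such rows, Mustn1 at 1.47, Dmd at 1.09 and Filip1l at 1.32 as higher and the heat shock protein gene Hspb1 at -1.06 as lower, and Palld was at 0.78. Those 4 rows are 7.84% of the list, against 14.4% of all rows, and 6 rows then had an adjusted p under 0.05 at any fold, 11.8% against 6.28% of all rows. Without E4.5 replicate 1 there were 7 such rows (11.4% of all rows met the criterion) and without replicate 2 of that day 5 (12.1%). At E18.5, 0 of the 52 rows met the criterion, against 6.05% of all rows. At any fold 5 had an unadjusted p under 0.05, all higher, which is 9.62% against 12.2% of all rows in either direction and 6.64% as higher, and 0 had an adjusted p under 0.05 (limma). The count past the criterion was 1 without E15.5 replicate 3 and 1 without E18.5 replicate 3, where 7.82% and 7.42% of all rows met it.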

How the data were processed

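RNA of 12 whole uteri had been sequenced for the study, 3 mice on each of 4 days. The authors described trimming with Cutadapt, alignment with Bowtie2 and Tophat2, assembly with StringTie and estimation with Ballgown, whereas the submitters' processing notes name Bowtie 0.12.2, HISAT2 2.0 and StringTie 1.3.0. FPKM values were made by the authors separately for each pair of days, and the counts deposited for E0.5 and E4.5 are whole numbers whose assignment to genes and to strands is not given in the sources used here. The labels describe poly(A) selection and the paper ribosomal RNA depletion. An FPKM of 0.0001 in the first table stands for a count of 0 and was set to 0. Rows with no gene name were kept, and took from 1.02% to 1.86% of the counts.

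Rows whose mean over 6 libraries reached 0.1 FPKM were tested, E0.5 against E4.5 with edgeR 4.0.16 (TMM, quasi-likelihood) on counts, and E18.5 against E15.5 with limma 3.58.1 (trend) on log2(FPKM + 0.1), where the fold of a low gene is understated. P-values were adjusted by Benjamini-Hochberg over all tested rows, and the test of the difference between stages used limma on rows that share Ensembl transcripts. P-values measure the spread between 3 mice. Simulated data served to check both tests. Alternatives were DESeq2 1.42.0, limma on FPKM, other filters, scalings and pseudocounts, blocking by replicate number, and leaving out each library. Same-numbered libraries did not deviate together (correlations from -0.18 to 0.05), so the numbers were not taken as pairs.

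The members, the gene lists and their roles were chosen with earlier results of these data known. Values in every library are given for members past the criterion, for the most abundant member of each role, and for Acta2, Actg2, Myh11, Myocd and Srf, and for the 3 other contraction genes with the largest change past the criterion. Tpm4, Cald1, Pdlim7, Actc1, Filip1l and Hspb1 were named after their values were seen. For Rock1 the row that holds this gene alone was used, in place of a row merged with the small nuclear RNA Gm26244 that the rule on the highest FPKM would take, a choice also made after its values were seen. Sequences of the members were not used here.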

Additional observations from a re-analysis of the deposited data

Results flagged for a closer look

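The effect of the day differed between the stages for 2 of the 52 other contraction genes in limma's test of the difference, 3.85% against 2.64% of all paired rows. For Dmd it was 1.29 higher on the log2 scale in E0.5 against E4.5 than in E18.5 against E15.5 (SE 0.264, adjusted p = 0.0296), and its FPKM at E18.5 of 6.22, 8.89 and 9.51 overlapped with 8.36, 8.44 and 8.35 at E15.5. For Mustn1 the difference was 2.01 (SE 0.438, adjusted p = 0.0359), with 15.3, 12.2 and 14.9 FPKM at E18.5 and 31.1, 14.0 and 15.2 FPKM at E15.5, where replicate 1 was the high library. Without that library the difference was 1.65 for Mustn1 (adjusted p = 0.0384) and 1.30 for Dmd (adjusted p = 0.0449). Over 16 alternatives the adjusted p ranged from 0.0238 to 0.0862 for Dmd and from 0.0331 to 0.0979 for Mustn1, and 8 and 6 of them were under 0.05.

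The table of E0.5 and E4.5 also holds rows without a gene name inside member genes, which the report did not use. At Synpo2, which encodes an actin-bundling protein of dense bodies, 10 such rows, 3 on the strand of the gene and 7 on the opposite strand, held 99.2% as many counts as the gene itself. They summed to 15281, 21301 and 20704 counts at E0.5 and to 46425, 37962 and 4607 counts at E4.5. Without E4.5 replicate 3 their log2 fold changes lay between -1.42 and -0.50, 7 of the 10 rows met the criterion as lower at E0.5 and 5 had an adjusted p under 0.05 (edgeR), against 6.44% of all rows past the criterion as lower and 2.71% also past the adjusted p, while Synpo2 itself was at -0.56. With all libraries none of the 10 met the criterion. The 10 rows lie in a single gene and all had their lowest count in E4.5 replicate 3, so they are not 10 independent results. A single row on the opposite strand held 1.34% as many counts as Acta2, another 6.75% as many as Actg2 and another 0.754% as many as Myh11. The row at Actg2 had 919, 677 and 380 counts at E0.5 and 2841, 2297 and 295 counts at E4.5. Its log2 fold change was -1.44 (adjusted p = 0.384, edgeR) and became -1.95 (adjusted p = 0.0269) without E4.5 replicate 3. Since counting by strand is not stated, reads of a gene and of the opposite strand cannot be told apart.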

How the results depend on the processing

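Leaving out 1 library at a time gave between 0 and 5 members past the criterion for E0.5 against E4.5, between 0 and 3 for E18.5 against E15.5, between 3 and 7 and between 0 and 1 of the other contraction genes, and between 0 and 1 members that differed between the stages (1 without E15.5 replicate 1, against 2.71% of the paired rows). The count for E0.5 against E4.5 was 2 with limma on FPKM (Lmod1 and Ppp1r14a; 12.9% of all rows) and 3 without a fold minimum (17.0%), DESeq2 put 1 past the adjusted p with the fold minimum (8.06%), and factors from protein-coding rows and the upper quartile gave 7 and 5 other contraction genes (12.3% of all rows in each). The count for E18.5 against E15.5 was 4 without a fold minimum (12.2% of all rows). With the replicate block, 2 members met the criterion for E0.5 against E4.5 (Lmod1 and Ppp1r14a; 10.4% of all rows), 1 for E18.5 against E15.5 (5.99%), and 1 other contraction gene did at E18.5. The log2 difference of the Actg2 to Acta2 ratio ranged from -0.34, without E4.5 replicate 3, to 0.015, without E4.5 replicate 1, and at the later stage from -0.019, without E15.5 replicate 1, to 0.43.

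Directions reversed for members near 0 and for some further from it. Among the latter were Acta2 at the earlier stage (0.32 with all libraries), and Mylk (0.39) and Myocd (-0.32) at the later stage. Without E4.5 replicate 3, 15 members were higher at E0.5, against 27 with all libraries. With a library left out, the log2 fold changes of E0.5 against E4.5 ranged from -0.089 to 0.95 for Acta2, -0.44 to 0.78 for Actg2 (-0.14 without E0.5 replicate 3), -0.24 to 0.92 for Des, -0.11 to 0.34 for Srf, -0.31 to 0.59 for Csrp1 (-0.16 without E0.5 replicate 2) and -0.28 to 0.12 for Myocd (0.02 and 0.04 without E0.5 replicate 3 and E4.5 replicate 1). Those of E18.5 against E15.5 ranged from -0.0033 to 0.61 for Mylk, -0.33 to 0.11 for Ppp1r14a (0.10 without E15.5 replicate 3), -0.64 to 0.010 for Myocd and -0.12 to 0.18 for Tpm4 (0.0046 and 0.05 without E18.5 replicates 2 and 3). Factors from protein-coding rows and the upper quartile turned Myocd to 0.061 and 0.044 for E0.5 against E4.5, and quantile normalization turned Tpm4 to 0.15 at the later stage. The cause was not tested.

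Of 393 values of single genes under an alternative, 365 kept direction and side of the threshold. Factors from protein-coding rows, rows without a gene name left out and the merged Rock1 row were chosen after the data were seen. With 3 mice a day, the 95% interval of a member had a median half-width of 0.97 on the log2 scale at the earlier and 0.54 at the later stage, and the unknown depth of the later libraries leaves the counting error of their low genes unknown.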

Other observations

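In all, 59 rows without a gene name lay at 20 of the 38 member genes, 55 of them wholly inside the gene, with 14 on its strand, 27 on the opposite strand and 18 of unknown strand. The median log2 fold change of these rows, E0.5 over E4.5, was -0.04 with all libraries and -0.21 without E4.5 replicate 3, and 1 row met the criterion as higher and 1 as lower at E0.5 with all libraries, against 0 and 9 without that library (edgeR). Of all rows, 6.37% were past it as higher and 5.82% as lower with all libraries, and 7.99% and 6.44% without that library. Of those 9 rows, 7 lie in Synpo2, 1 in Actg2 and 1 in Rock1, and the row in Rock1 had 7652 counts in E4.5 replicate 2 and 25 to 121 in the other 5 libraries. The row at Mylk on the opposite strand had 1065, 1472 and 1505 counts at E0.5 and 868, 755 and 416 counts at E4.5, with a log2 fold change of 1.01. The row in which Rock1 is merged with Gm26244 had 67.5, 116 and 139 FPKM at E0.5 against 234, 0.554 and 111 FPKM at E4.5. This is a spread within a day that the row of Rock1 alone, with 3.50 to 3.97 FPKM in all 6 libraries, did not show.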
